A study of Danio rerio with 8 samples.

Results

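The 44 genes described here drive or mark cell division: 16 act in S phase, when DNA is copied, 26 in G2 and mitosis (G2/M), and 2 in G1. They were chosen by symbol among 37685 symbols in the count files, with the rows of a symbol summed. The libraries are bulk RNA-seq of tcf21:nEGFP-positive cells, labelled epicardial, sorted from ventricles of Tg(tcf21:nEGFP) zebrafish of similar body size at 70 days post-fertilization. There were 4 libraries from mutants carrying cxcr4aum20, whose label reads coronary loss, and 4 wild-type control libraries with the same transgene. The nuclear reporter follows tcf21, so the sort keeps cells by reporter and not by division, and whether a library is 1 fish or a pool is not stated. The comparison asks whether transcripts of dividing cells differ in the epicardium of mutants described as having lost coronary vessels. It cannot tell vessel loss apart from other effects of the mutation.

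In vertebrate cells, cyclin-dependent kinases drive the cycle, each switched on by a cyclin that is made and destroyed on time. Before S phase the MCM helicase is loaded at origins, and E2F factors raise the genes of replication. Transcripts of mitotic genes peak later, in G2 and mitosis, so S and G2/M genes report different moments of the cycle. Epicardial cells divide while the heart grows and again after injury, and most are at rest in an uninjured adult heart. The roles named below are those established in vertebrate cells.

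The libraries held 18891079 to 28471786 counts, and 15512 to 17520 symbols per library had 10 or more. Levels are CPM, counts scaled to library size with TMM factors, and each gene is compared between libraries. They are not divided by gene length, so sums over genes and the term most abundant describe CPM, in which gene length also counts. The epicardial markers tcf21 and tbx18 were present in every library, at 73.0 to 142 CPM and 538 to 1117 CPM. A further epicardial marker, aldh1a2, whose symbol is on 2 rows, was at 0.0898 to 0.263 CPM. cxcr4a, the mutated gene, had 12 to 447 counts, with overlapping groups (log2 fold change 1.26 ± 0.85, SE, n = 4 per group; edgeR adjusted p = 0.744). A mutant transcript can still be counted, so this does not check the labels.

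Transcripts of dividing cells were found in every library, and the mean level of S and of G2/M members differed between genotypes by less than its SD within either genotype. Of the 44 members, 40 had enough counts to be tested. edgeR called 0 of the 40 at an adjusted p under 0.05, against 0.0481% of all genes tested (8 of 16631, with 0.012% higher and 0.0361% lower in mutants), and 0 of 40 had an unadjusted p under 0.05, against 8.64%. DESeq2 called 0 members too, against 459 of the 26147 genes it tested. That 26147 was counted before its own filter on mean count, so the share is not comparable with that of edgeR. The groups overlapped for all 40 tested members, while 6.3% of all genes tested had groups that did not overlap (3.48% with mutants above, 2.82% below). The smallest adjusted p among the members was 0.665. The SD of log2 CPM within a genotype had a median of 1.22 over the 40 members and 0.61 over all genes tested. It was above the median of genes at a like level in 35 of 40. Because these are bulk samples, fewer dividing cells and less RNA per dividing cell cannot be told apart.

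**Figure D1:**
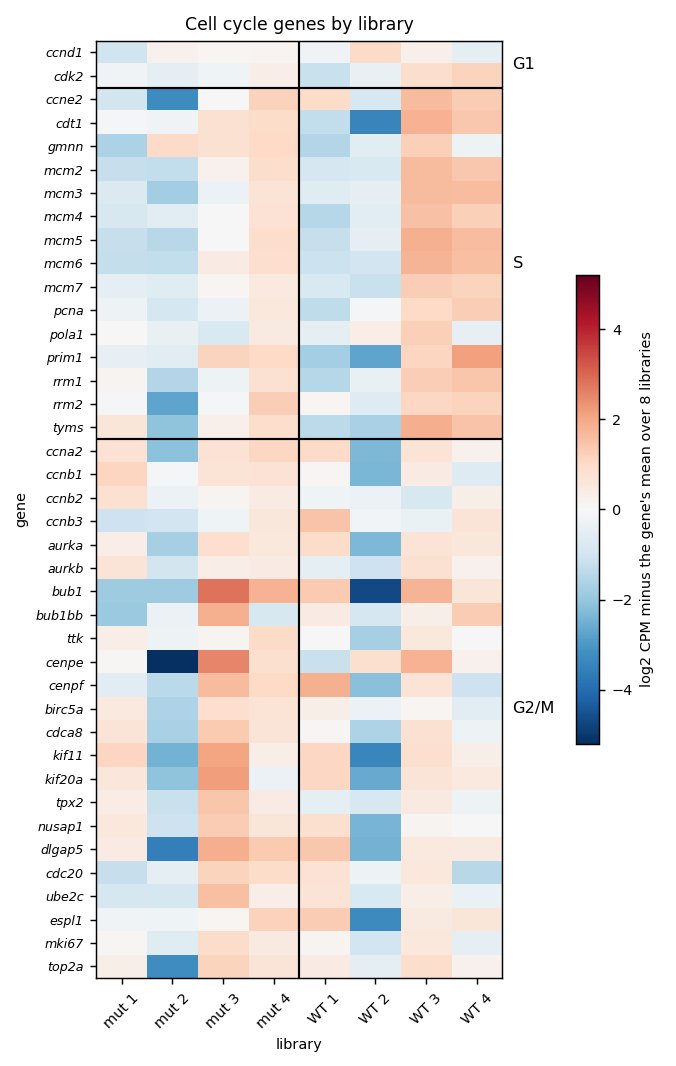
Log2 CPM of the 40 tested cell cycle genes (rows, grouped as G1, S and G2/M) in each of the 8 libraries (columns), each gene centred on its mean over the libraries, with red above and blue below that mean. Most S genes are red in wild type 3, wild type 4 and cxcr4a mutant 4, while most G2/M genes are deepest blue in cxcr4a mutant 2 and wild type 2.

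Replication licensing genes shared a library order. The 6 MCM genes encode the subunits of the helicase that unwinds DNA at the replication fork. Their summed level was 233, 206, 467 and 764 CPM across mutants 1 to 4 and 226, 266, 1370 and 1196 CPM across wild types 1 to 4. Wild type 3 and 4 were thus several-fold above wild type 1 and 2, and cxcr4a mutant 4 lay between. Wild type 3, wild type 4 and cxcr4a mutant 4 were the 3 highest libraries for all 6 MCM genes, an order noticed in the values.

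mcm3 was at 44.1, 21.3, 60.02 and 122 CPM across mutants 1 to 4 and 48.6, 53.4, 237 and 229 CPM across wild types 1 to 4. Its log2 fold change of -1.20 ± 0.65 (SE, n = 4 per group; edgeR adjusted p = 0.665) had the smallest p of all members, and its 95% interval ran from -2.66 to 0.26. mcm5 was at 27.7, 23.4, 62.0 and 118 CPM across mutants 1 to 4 and 27.3, 44.5, 229 and 194 CPM across wild types 1 to 4 (log2 fold change -1.10 ± 0.73, edgeR adjusted p = 0.738). For both genes the lower wild-type pair sat within the mutant range. mcm2 ranged from 41.9 to 318 CPM, mcm4 from 26.3 to 212, mcm6 from 25.1 to 205 and mcm7 from 31.3 to 169 CPM, and the highest library was wild type 3 for all 4. Their log2 fold changes were between -0.85 and -0.56, all 4 with an edgeR adjusted p of 0.793 or more.

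The genes that start S phase had few counts. ccne2, encoding cyclin E2, which activates cdk2 at S entry, was at 0.905, 0.116, 1.82 and 4.33 CPM across mutants 1 to 4 and 3.63, 1.00, 5.95 and 4.80 CPM across wild types 1 to 4 (log2 fold change -1.09 ± 0.93, edgeR adjusted p = 0.796). cdt1, which loads the MCM helicase, was at 2.90, 2.73, 5.51 and 6.18 CPM in mutants. In wild type it spread from 0.218 CPM in library 2 to 11.4 CPM in library 3, with 1.26 and 8.56 CPM in libraries 1 and 4. Its log2 fold change was -0.31 ± 0.94 (edgeR adjusted p = 0.965). gmnn encodes geminin, which blocks cdt1 until division is over. It had 4 to 64 counts per library and was the only S member with a positive log2 fold change (0.58 ± 0.91, edgeR adjusted p = 0.907).

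For 4 of the 6 DNA synthesis genes the same 3 libraries were highest. pcna, the sliding clamp of DNA polymerases, was at 142, 92.4, 141 and 250 CPM across mutants 1 to 4 and 69.4, 166, 358 and 418 CPM across wild types 1 to 4 (log2 fold change -0.69 ± 0.52, edgeR adjusted p = 0.772). rrm1, the large subunit of ribonucleotide reductase, was at 51.2, 16.3, 38.6 and 80.0 CPM across mutants 1 to 4 and 16.5, 35.8, 113 and 125 CPM across wild types 1 to 4 (log2 fold change -0.64 ± 0.64, edgeR adjusted p = 0.838). In each gene the 2 highest libraries were wild type 3 and 4 and the next was cxcr4a mutant 4. tyms, which makes thymidylate, ranged from 1.80 to 29.2 CPM, and rrm2, the small reductase subunit, from 0.986 CPM in cxcr4a mutant 2 to 17.3 CPM in cxcr4a mutant 4. Within the complex that primes DNA synthesis, prim1, the primase subunit gene, ranged 33.6-fold between libraries. pola1, the catalytic subunit of its DNA polymerase alpha, ranged 4.21-fold, the narrowest range among tested S members. Log2 fold changes were -0.56 ± 0.86 for tyms, -0.44 ± 0.72 for rrm2, -0.28 ± 0.96 for prim1 and -0.46 ± 0.45 for pola1, with edgeR adjusted p from 0.838 to 0.968.

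Over the 15 tested S members, the mean log2 CPM was 3.72, 3.11, 4.41 and 5.14 across mutants 1 to 4 and 3.33, 3.31, 5.75 and 5.49 across wild types 1 to 4. Mutants averaged 4.09 ± 0.88 and wild types 4.47 ± 1.33 (SD, n = 4). The means differed by less than either SD. The log2 fold change was negative for 14 of 15, with a median of -0.64, beside 8205 of 16631 negative and a median of 0.01 over all genes tested. Without wild type 3 or 4 that median was -0.24 or -0.34. Wild type 3, wild type 4 and cxcr4a mutant 4 were the 3 highest libraries for 12 of 15 S members and for 4.4% of all genes tested.

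**Figure D2:**
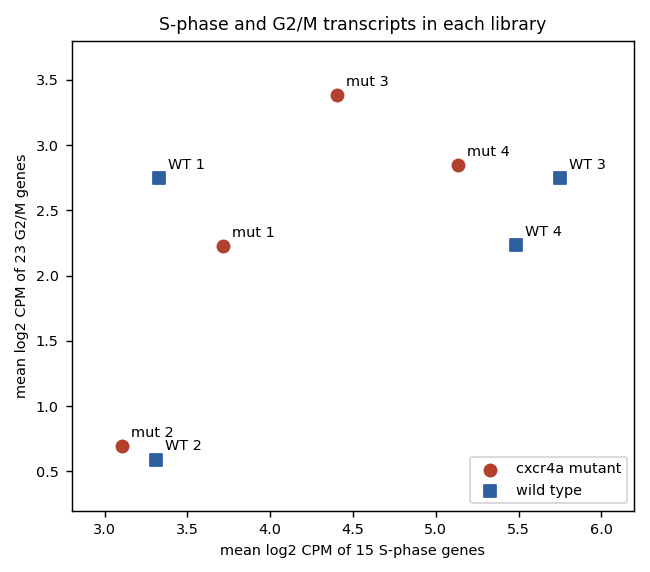
Each point is 1 library, placed by the mean log2 CPM of 15 tested S-phase genes (x axis) and of 23 tested G2/M genes (y axis), with circles for cxcr4a mutants and squares for wild type. cxcr4a mutant 2 and wild type 2 are low on both axes, wild type 1 is low in S (3.33) with a G2/M mean of 2.75, and wild type 3, also at 2.75 in G2/M, has an S mean of 5.75.

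G2/M genes ordered the libraries differently, apart from the 2 lowest. Over the 23 tested G2/M members, the mean log2 CPM was 2.23, 0.69, 3.39 and 2.84 across mutants 1 to 4 and 2.75, 0.59, 2.75 and 2.24 across wild types 1 to 4. cxcr4a mutant 3 was the highest library and cxcr4a mutant 2 and wild type 2 were the lowest, so each genotype held a library with few mitotic transcripts. cxcr4a mutant 3 was highest for 14 of 23 members, beside 7.79% of all genes tested and 0 of 15 S members. cxcr4a mutant 2 and wild type 2 were the 2 lowest libraries for 15 of 23, beside 5.41% of all genes tested and 2 of 15 S members. Their S means, 3.11 and 3.31, were the lowest as well, with wild type 1 close at 3.33. Of the 15 S members, 11 were lowest in 1 of these 2 libraries. The summed G2/M counts were 1240 in cxcr4a mutant 2 and 1542 in wild type 2, against up to 8755 in other libraries.

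The difference between the S mean and the G2/M mean was lowest in wild type 1, as a description. It was 0.58 log2 units there, 2.72 to 3.25 in the other 3 wild types and 1.02 to 2.41 in mutants. Since genes of unequal length and efficiency enter these means, the difference has no absolute meaning and is read only between libraries. Wild type 1 also had the highest share of counts from mitochondrial mRNA, 9.43% against 2.09% to 5.45% in the other 7, and the lowest TMM factor, 0.808. cxcr4a mutant 3, with the next lowest difference, had 5.45%. Other libraries did not follow this, since wild type 2 had 4.98% with a difference of 2.72 and cxcr4a mutant 1 had 2.75% with 1.49. The part of RNA quality in these differences was not tested.

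Mitotic cyclins and kinases were low in count. ccnb1, encoding cyclin B1, which drives entry into mitosis, was at 13.6, 6.03, 10.2 and 10.5 CPM across mutants 1 to 4 and 6.53, 1.13, 8.41 and 3.90 CPM across wild types 1 to 4. Of the 4 mutant libraries, 3 lay above every wild type, and mutant 2 lay below wild type 1 and 3. Its log2 fold change of 1.01 ± 0.57 was the highest of all members (95% interval -0.26 to 2.29, edgeR adjusted p = 0.674). ccna2, encoding cyclin A2, acts in S phase and G2. It was at 13.8, 1.80, 14.1 and 17.3 CPM across mutants 1 to 4 and 16.4, 1.57, 13.6 and 9.70 CPM across wild types 1 to 4, so cxcr4a mutant 2 and wild type 2 stood below all other libraries. ccnb2 and ccnb3, further B-type cyclins, had at most 56 and 50 counts in any library, with log2 fold changes of 0.56 ± 0.60 and -0.92 ± 0.76 (edgeR adjusted p = 0.856 and 0.793). aurka, the Aurora kinase of the spindle poles, was at 0.754 CPM in cxcr4a mutant 2, 0.479 CPM in wild type 2 and 3.52 to 5.43 CPM in the other 6 libraries. aurkb, the Aurora kinase of the chromosomal passenger complex, had a narrower range of 3.09 to 11.5 CPM.

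Checkpoint and centromere genes spread widely. bub1, a spindle checkpoint kinase, was at 0.524, 0.522, 15.7 and 7.65 CPM across mutants 1 to 4 and 5.69, 0, 7.42 and 3.38 CPM across wild types 1 to 4, with 0 counts in wild type 2. cenpe, a kinetochore motor, was at 3.14, 0, 18.1 and 5.48 CPM across mutants 1 to 4 and 1.32, 5.49, 10.6 and 3.52 CPM across wild types 1 to 4, with 0 counts in cxcr4a mutant 2. For both, cxcr4a mutant 3 was the highest library. cenpf, a kinetochore protein, was highest in wild type 1, at 30.3 CPM, and lowest in wild type 2, at 1.83 CPM. The checkpoint kinase gene ttk ranged from 2.79 to 18.8 CPM, bub1bb, of the same checkpoint, from 0.524 to 8.11, and the passenger complex genes birc5a and cdca8 from 0.638 to 3.86 and from 1.16 to 10.3 CPM. Log2 fold changes of these 7 genes were between -0.11 and 0.64, all 7 with an edgeR adjusted p of 0.846 or more.

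Spindle and cytokinesis genes repeated the order. kif11, the motor that separates the spindle poles, was at 16.9, 1.33, 32.3 and 9.84 CPM across mutants 1 to 4 and 16.5, 0.654, 14.2 and 9.56 CPM across wild types 1 to 4 (log2 fold change 0.56 ± 0.94, edgeR adjusted p = 0.920). kif20a, a motor needed for cytokinesis, was at 9.38, 1.39, 28.3 and 5.10 CPM across mutants 1 to 4 and 13.4, 0.959, 10.02 and 8.84 CPM across wild types 1 to 4 (log2 fold change 0.41 ± 0.90, edgeR adjusted p = 0.944). Both had cxcr4a mutant 3 as the highest and wild type 2 as the lowest library. tpx2, which activates Aurora A, ranged from 3.19 to 19.6 CPM (log2 fold change 0.72 ± 0.54, edgeR adjusted p = 0.771). nusap1, a microtubule bundling protein gene, ranged from 1.44 to 19.95 CPM and dlgap5, a spindle assembly gene, from 0.0580 to 6.11 CPM.

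Among genes of mitotic exit, cdc20 and ube2c were highest in cxcr4a mutant 3. cdc20, which directs the ubiquitin ligase of anaphase, was at 2.00, 3.31, 10.7 and 9.08 CPM across mutants 1 to 4 and 8.06, 3.88, 6.82 and 1.66 CPM across wild types 1 to 4. ube2c, the ubiquitin-conjugating enzyme of that ligase, was at 3.81, 3.65, 20.7 and 8.87 CPM across mutants 1 to 4 and 11.4, 4.05, 8.95 and 5.47 CPM across wild types 1 to 4, with wild type 1 above cxcr4a mutant 4. espl1, encoding separase, which cuts the cohesin ring, had 0 to 54 counts. Their log2 fold changes were 0.30 ± 0.66, 0.31 ± 0.61 and -0.12 ± 1.09 (edgeR adjusted p = 0.945, 0.936 and 0.989).

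mki67, the gene of the proliferation marker Ki-67, was at 39.6, 24.5, 74.8 and 52.7 CPM across mutants 1 to 4 and 41.9, 18.9, 56.3 and 27.5 CPM across wild types 1 to 4. Every library thus held mki67 transcripts, with a 3.95-fold range. Its log2 fold change was 0.40 ± 0.41 (95% interval -0.51 to 1.32, edgeR adjusted p = 0.843). top2a, the topoisomerase that untangles replicated chromosomes, was at 18.3, 1.51, 33.3 and 23.7 CPM across mutants 1 to 4 and 20.1, 10.6, 27.6 and 17.3 CPM across wild types 1 to 4, with a change of 0.02 ± 0.69 in log2 (edgeR adjusted p = 0.996).

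By genotype, more G2/M members had positive than negative changes, and none passed the test. The log2 fold change was positive for 19 of 23, with a median of 0.40, beside 8426 of 16631 positive over all genes tested. Their mean log2 CPM averaged 2.29 ± 1.16 for mutants and 2.08 ± 1.02 for wild types (SD, n = 4), a difference smaller than either SD. Without cxcr4a mutant 3 the median was -0.06 and 10 of 23 were positive. Marker lists of other cell types were set beside this. The log2 fold change was positive for 8 of 8 cardiomyocyte markers (median 1.26, 4 at an unadjusted p under 0.05) and for 8 of 8 mural markers (median 0.46, 2 at an unadjusted p under 0.05), beside 5.09% of all genes tested that were higher at that p. edgeR called none of these. DESeq2, which called 459 of 26147 genes, called the mural gene ndufa4l2a higher. That gene had 0 counts in cxcr4a mutant 2 and in wild type 2, and 1 to 9 in the other wild types. Its groups overlapped. Other lists went mostly the other way, with positive changes for 3 of 12 leukocyte markers (median -0.34) and 0 of 4 endothelial markers (median -0.50). Of 7 tested erythrocyte and thrombocyte markers 2 were positive (median -0.07). Neither edgeR nor DESeq2 called a gene of these other lists. At an unadjusted edgeR p under 0.05 there was 1 of the 12 leukocyte markers, mfap4.1, lower, beside 3.55% of all genes tested in that direction. There was 1 of the 7 erythrocyte and thrombocyte markers, thbs1b, higher, and 0 of the 4 endothelial markers. Of 7 tested epicardial markers 6 had negative changes (median -0.14). Only gstm.3, lower, had an unadjusted p under 0.05, and DESeq2, not edgeR, called it. Their part in the genotype values of the members was not tested. The 95% interval of each of the 15 S and 23 G2/M members included a change of 2-fold in at least 1 direction, so these libraries do not bound the change of any of them below 2-fold.

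**Figure D3:**
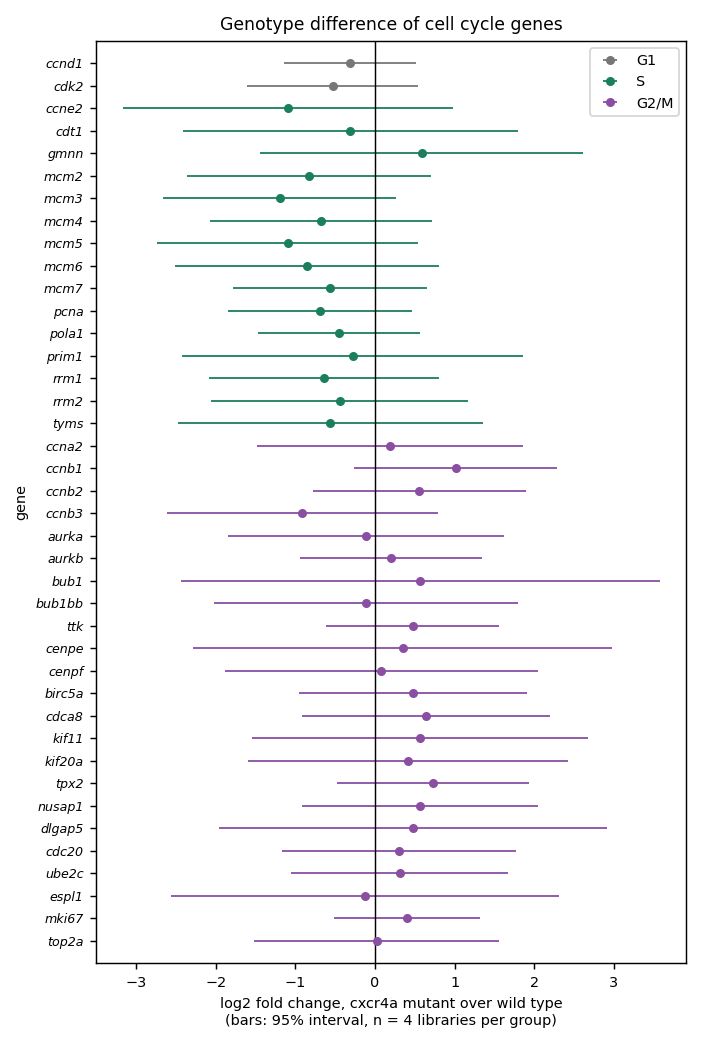
Log2 fold change of cxcr4a mutant over wild type (x axis) for the 40 tested cell cycle genes (y axis), with 95% intervals as bars and colours for G1, S and G2/M. Every interval includes 0, with S genes mostly left of 0 (14 of 15) and G2/M genes mostly right of it (19 of 23).

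The G1 pair did not share an order. ccnd1, encoding cyclin D1, which links growth signals to cell cycle entry, was at 24.2, 57.7, 53.3 and 54.4 CPM across mutants 1 to 4 and 43.2, 97.5, 58.8 and 36.2 CPM across wild types 1 to 4. It was highest in wild type 2, the library lowest in G2/M members (log2 fold change -0.31 ± 0.37, edgeR adjusted p = 0.869). cdk2, the kinase partner of cyclins E and A, was at 14.4, 11.6, 14.3 and 20.7 CPM across mutants 1 to 4 and 7.43, 12.7, 31.1 and 37.0 CPM across wild types 1 to 4, with the 3 libraries highest in S genes also highest here (log2 fold change -0.53 ± 0.48, edgeR adjusted p = 0.814).

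Further cell cycle genes outside the 44 shared the S order in most cases and the G2/M order in part. Of 42 tested S-phase genes, which include origin recognition, polymerase and ligase genes, 27 had wild type 3, wild type 4 and cxcr4a mutant 4 as their 3 highest libraries, beside 4.4% of all genes tested. For 22 of 51 tested G2/M genes the 2 lowest libraries were cxcr4a mutant 2 and wild type 2, beside 5.41% of all genes tested. cxcr4a mutant 3 was the highest library for 10 of these 51 (19.6%), beside 7.79% of all genes tested and 14 of 23 members. The summed level of the list, to which abundant genes add most, was highest in wild types 4 and 3, at 1441 and 1433 CPM. By mean log2 CPM, as used for the members, cxcr4a mutant 3 was highest at 3.085. Wild type 3 was at 3.031, cxcr4a mutant 4 at 3.026 and wild type 4 at 2.55. None of the 42 and none of the 51 was called by edgeR, while DESeq2 called stmn1a of the G2/M list higher and no other gene of either. Over all genes DESeq2 called 459 of 26147. At an unadjusted p under 0.05 there was 1 of the 42, lower in mutants, beside 3.55% of all genes tested in that direction. There was 1 of the 51, higher, beside 5.09%.

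orc2, of the origin recognition complex, was at 3.02 ± 1.28 CPM over the mutants and 8.31 ± 5.54 CPM over the wild types (SD, n = 4 libraries each; log2 fold change -1.46 ± 0.60, edgeR adjusted p = 0.533). fen1, the flap nuclease of lagging strands, and pold3, a DNA polymerase delta subunit, had log2 fold changes of -0.91 ± 0.52 and -0.80 ± 0.47 (edgeR adjusted p = 0.678 and 0.695). Of the 42, 37 had negative changes, with a median of -0.47. stmn1a, encoding the microtubule destabiliser stathmin, was at 101, 77.3, 64.7 and 88.2 CPM across mutants 1 to 4 and 36.3, 47.0, 30.7 and 53.8 CPM across wild types 1 to 4. All 4 mutants lay above all 4 wild types, as for 3.48% of all genes tested, but the log2 fold change, 0.98 ± 0.24, missed the threshold with edgeR (adjusted p = 0.252) and passed it with DESeq2. It did not follow the G2/M library order, since cxcr4a mutant 3 was its lowest mutant. cenpa, the centromeric histone, and prc1b, a midzone protein gene, were at -0.89 ± 0.50 and 1.16 ± 0.72 (edgeR adjusted p = 0.674 and 0.715). The 51 genes had 29 positive changes and a median of 0.07.

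CDK inhibitors and genes tied to arrest were not called either. Of 23 tested CDK inhibitor and arrest genes, 20 had positive log2 fold changes, with a median of 0.40, and edgeR and DESeq2 called 0. The summed level of the list was 2693, 4327, 1608 and 1458 CPM across mutants 1 to 4 and 2142, 1361, 1572 and 1719 CPM across wild types 1 to 4, so mutants 3 and 4 lay within the wild-type range. The genes that added most in cxcr4a mutant 2 were not CDK inhibitors but btg2, tob1b, tob1a and gadd45ba, at 783, 761.5, 677 and 677 CPM. At an unadjusted p under 0.05 there were 2, both higher, beside 5.09% of all genes tested. btg3, an antiproliferative gene, was at 44.5, 54.6, 21.5 and 23.7 CPM across mutants 1 to 4 and 16.2, 19.6, 20.7 and 26.3 CPM across wild types 1 to 4 (log2 fold change 0.80 ± 0.34, edgeR adjusted p = 0.553). cdkn1bb, of the p27 family of CDK inhibitors, was at 64.1, 103, 37.9 and 37.2 CPM across mutants 1 to 4 and 52.2, 18.7, 26.7 and 29.3 CPM across wild types 1 to 4 (log2 fold change 0.93 ± 0.41, edgeR adjusted p = 0.570). Both were highest in cxcr4a mutants 1 and 2, the mutant libraries with the lowest S and G2/M means. Wild types did not follow this. Among them cdkn1bb and the list sum were lowest in wild type 2, the library lowest in G2/M members, and btg3 was highest in wild type 4. mdm2, on the list as a p53 target, marks p53 for degradation and does not itself hold the cycle back. Its log2 fold change was 0.64 ± 0.33 (edgeR adjusted p = 0.641).

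Other G1 cyclins and kinases had 5 of 6 negative changes, among them cdk6, ccnd2b and ccnd2a at -0.78 ± 0.49, -0.45 ± 0.33 and -0.33 ± 0.26 (edgeR adjusted p = 0.717, 0.768 and 0.784). The list of E2F factors, their partners and other cell cycle transcription factors had 15 of 22 negative changes. Its genes with the smallest p were mycb at 0.62 ± 0.40, e2f7 at -1.62 ± 1.07 and e2f8 at 0.97 ± 0.69 (edgeR adjusted p = 0.722, 0.736 and 0.757). No gene of either list had an unadjusted p under 0.05, and edgeR and DESeq2 called none.

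Markers of some other cell types moved with parts of the library orders. The summed level of 16 leukocyte markers found in the files was 1477, 700.5, 2692 and 4630 CPM across mutants 1 to 4 and 2573, 1409, 3879 and 2882 CPM across wild types 1 to 4. It was lowest in cxcr4a mutant 2 and wild type 2, the libraries lowest in G2/M members. All 12 tested leukocyte markers had their lowest value in 1 of those libraries, beside 29.8% of all genes tested and 19 of 23 G2/M members. This was not particular to them, as it also held for 6 of 7 erythrocyte and thrombocyte markers, 6 of 8 mural markers and 11 of 15 S members. For the leukocyte markers that library was cxcr4a mutant 2 in every case but mpx, which was lowest in wild type 2. G2/M members were lowest in wild type 2 for 12 and in cxcr4a mutant 2 for 7. Both libraries were the 2 lowest for 5 of 12 leukocyte markers, beside 5.41% of all genes tested and 15 of 23 G2/M members. The leukocyte sum of wild type 2 was also close to that of cxcr4a mutant 1. The most abundant leukocyte marker, cd74a, was at 408 to 2290 CPM, while mpeg1.1, coro1a and lck, each on 2 rows, were at or near 0. The part of leukocytes in the order of G2/M members was not tested.

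The summed level of 8 erythrocyte and thrombocyte markers was 3129, 3924, 7705 and 5265 CPM across mutants 1 to 4 and 899, 710, 7969 and 12460 CPM across wild types 1 to 4. Wild type 1 and 2, low in S members, were lowest, and wild type 3 and 4 were highest. Its most abundant gene was hbba1, a beta globin, at 285 to 4414 CPM, and alas2 was near 0. The 8 mural cell markers summed to 1051 and 581 CPM in wild type 1 and 2 and to 4049 and 5277 CPM in wild type 3 and 4. They were at 2064, 9790, 1081 and 1170 CPM in mutants, highest in cxcr4a mutant 2, which had the lowest S mean. acta2, a smooth muscle actin, was their most abundant gene. Their part in the order of S members was not tested.

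The 8 cardiomyocyte markers summed to 1933 CPM in cxcr4a mutant 3, the library highest in G2/M members, and 280 to 1214 CPM in the other 7. Of the 8, 7 were highest in that library, and myl7, a cardiac myosin light chain, was at 793 CPM there. Their part in the G2/M level of that library was not tested. The 6 endothelial markers found summed to 40.0, 60.7, 86.1 and 77.5 CPM across mutants 1 to 4 and 141, 101, 86.4 and 16.1 CPM across wild types 1 to 4, with kdrl the most abundant and plvapb at 0. They were highest in wild type 1, low in S members, and lowest in wild type 4, high in them. Epicardial markers, with gstm.3 the most abundant, summed to 3135, 3307, 4238 and 2791 CPM across mutants 1 to 4. They summed to 4963, 6214, 4347 and 6434 CPM across wild types 1 to 4, each above every mutant. Of the 7 tested markers only gstm.3 had groups that did not overlap, so the gap between the sums was not shared by the others. The next most abundant, tbx18 and podxl, were below every mutant in wild type 3, at 650 and 385 CPM. In wild type 2 both were above every mutant, at 1117 and 932 CPM. gstm.3 made up most of the epicardial sum in wild type 4, at 5067 of 6434 CPM, but not in cxcr4a mutants 2 and 4, at 1539 of 3307 and 1350 of 2791 CPM. For gstm.3 itself all mutants lay below all wild types, as for 2.82% of all genes tested (log2 fold change -1.12 ± 0.28, edgeR adjusted p = 0.252). tcf21 was at 142, 127, 95.6 and 73.0 CPM in wild types 1 to 4 and tbx18 at 1000, 1117, 650 and 538 CPM. Both were thus lower in wild types 3 and 4, the libraries highest in S members. The mutants went the other way, with tcf21 at 77.7, 79.7, 115 and 81.8 CPM in mutants 1 to 4 and tbx18 at 696, 698, 831 and 773 CPM. There both were lowest in mutants 1 and 2, the mutants lowest in S members. The other tested epicardial markers did not all share these orders. Among mutants wt1a, wt1b, podxl and gstm.3 were lowest in mutant 4, the mutant highest in S members, and sema3fb was highest there. Among wild types wt1a, podxl and sema3fb were also lower in libraries 3 and 4, while wt1b and gstm.3 were highest in wild type 4, at 144 and 5067 CPM. The mean log2 CPM of the 7 tested epicardial markers was highest in wild types 1 and 2 (8.09 and 8.04) and lowest in cxcr4a mutant 4 and wild type 3 (7.38 and 7.403). The part of this in the S order was not tested.

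**Figure D4:**
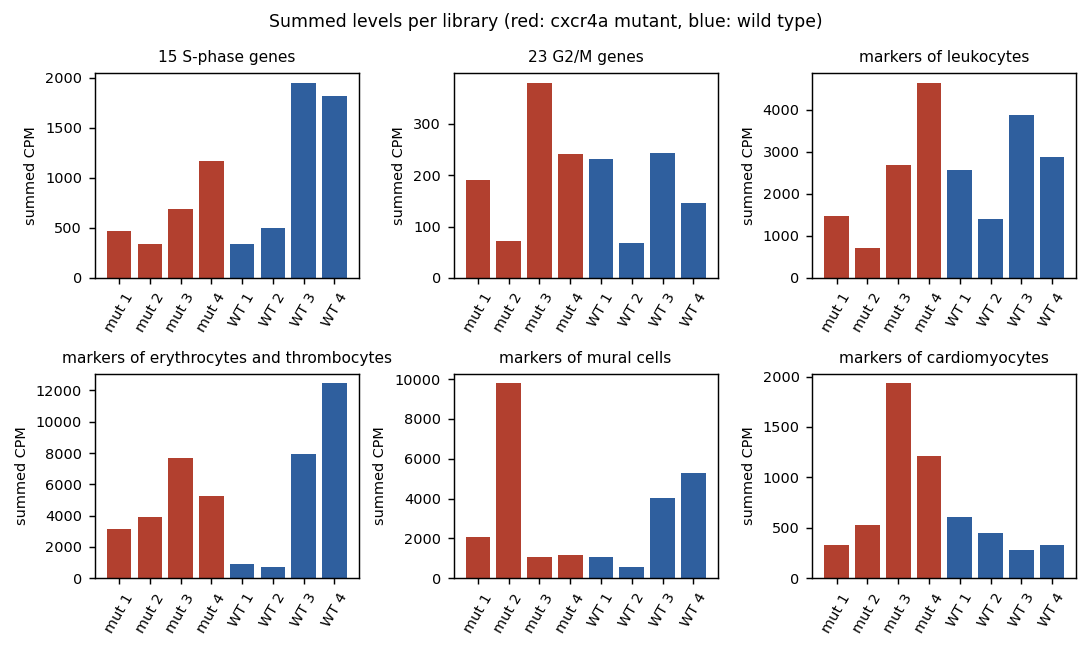
Summed CPM per library (bars, each axis from 0) of the tested S and G2/M genes and of the markers of 4 other cell types, red for cxcr4a mutants and blue for wild type. The leukocyte and G2/M panels share their lowest libraries, cxcr4a mutant 2 and wild type 2, and the cardiomyocyte and G2/M panels share their highest, cxcr4a mutant 3.

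Of the 44 members, 4 could not be measured. cdc6, a loader of the MCM helicase, cdk1, the kinase of mitotic entry, plk1, a mitotic kinase, and kif23, a motor of the central spindle, are each on 2 rows and are listed at 0 on both rows in all 8 libraries. ccnb1, whose product is the cyclin partner of cdk1, and the 6 MCM genes were counted in every library, so this is not a statement that the genes were silent. Of the 202 cell cycle symbols found in all, 7 of the 40 on 2 or more rows were listed at 0 everywhere, the other 3 being cks2, smc2 and e2f4, and 0 of the 162 on 1 row. Over all symbols the shares listed at 0 were 33.1% on 2 or more rows and 28.8% on 1 row. How reads that match 2 rows were counted is not stated in the labels or files.

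For dlgap5 the row that held the reads differed by genotype while the sum did not pass the test. The row with no added number took 34 of 45, 1 of 1, 91 of 141 and 100 of 122 counts across mutants 1 to 4. It took 3 of 82, 0 of 5, 0 of 76 and 0 of 47 across wild types 1 to 4. In cxcr4a mutant 4 this was 82% (95% interval 74 to 88.3) and in wild type 3 it was 0%, with an upper limit of 4.74%. The shares did not overlap between the genotypes, as for 24.9% of the 2181 repeated symbols with 100 or more counts in all and at least 1 in every library. Not overlapping is thus not in itself unusual among them, and the size of the gap was not compared. Summed, the log2 fold change was 0.48 ± 1.09 (edgeR adjusted p = 0.946). Fitted as deposited, the only dlgap5 row tested was dlgap5_1, at -1.35 ± 1.18 (edgeR adjusted p = 0.744), opposite in direction to the sum. For espl1, the row espl1_1 held 7, 4, 5 and 19 counts across mutants 1 to 4. It held 15 in wild type 1 and 0 in wild types 2, 3 and 4. For gmnn the shares of the 2 rows overlapped between genotypes, as they did for ccnb3. Fold changes of these 4 genes rest on the sums.

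**Figure D5:**
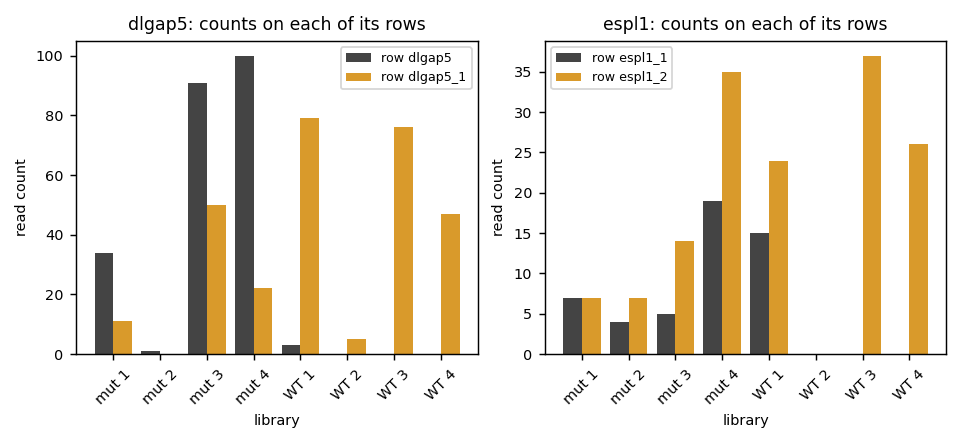
Read counts per library on the 2 rows that hold the reads of dlgap5 (left) and of espl1 (right), with bars in 1 colour for each row. In wild type the reads of dlgap5 lie on row dlgap5_1 but for 3 counts, and espl1_1 has no counts in wild type 2, 3 and 4.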

How the data were processed

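Sorted tcf21:nEGFP-positive cells gave 8 bulk RNA-seq libraries, made with SMART-Seq v4 amplification and Nextera XT, per the labels' protocols; reads carry no strand. The authors used cutadapt 5.2, STAR 2.7.11a and HTSeq with the GRCz11 build, per the submitters' processing notes (HTSeq version, settings and annotation release not given in the sources used here). They deposited raw read counts, 1 whole number per symbol and library. Of 53709 symbols, 16024 end in an added number such as _1. All rows of a symbol were summed, which left 37685 symbols.

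The summed table was fitted whole in R 4.3.3 with edgeR 4.0.16 (low counts removed by filterByExpr, TMM factors, 2-sided quasi-likelihood F-test on genotype). Genes with a Benjamini-Hochberg adjusted p under 0.05 were called, and SE is the log2 fold change over the square root of F. Phase means use log2 CPM with a prior count of 2. Members and lists were chosen with earlier results of these data known. Named genes are the 44 members, cxcr4a, the 3 genes of smallest p in each list of other cell cycle genes, and the most abundant markers of other cell types. Other genes, and the library orders that were counted, were picked after seeing their values. The alternatives were unsummed rows, DESeq2 1.42.0, DESeq2 size factors, scaling by library size only, no low-count filter, a replicate block, and each library left out. Planned promoter motifs were not analysed here. The edgeR step was tested on simulated data. The labels do not say that libraries come from separate fish, so p-values measure only the spread between libraries, which can be technical. Intervals on shares are exact binomial (Clopper-Pearson, 95%) and cover counting error only.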

Additional observations from a re-analysis of the deposited data

Results flagged for a closer look

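In 6 of 86 checks the highest or lowest library lay far from its 3 companions. The checks covered the log2 CPM of each member, the S and G2/M means and their difference, in each genotype. No mean or difference was flagged, and so not that of wild type 1. Chance gives about 1 in 20 for independent values, and these genes vary together, so no excess can be read from the 6. ccnd1 was at 24.2 CPM in cxcr4a mutant 1, below the other mutants, and gmnn was at 0.190 CPM in the same library, on 4 counts. ccna2, at 1.80 CPM, and birc5a, at 0.638 CPM, stood low in cxcr4a mutant 2. aurka, at 0.479 CPM, and kif20a, at 0.959 CPM, stood low in wild type 2. These 4 values belong to the libraries lowest in G2/M members.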

How the results depend on the processing

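No member was called by edgeR or DESeq2 under any of the 14 alternatives. At an unadjusted p under 0.05 there were 0 to 4 members, beside 1063 to 2391 genes of the 16631 to 26572 tested. The genes called over the whole table were 8 as reported, 63 with rows as deposited, 459 with DESeq2 and 0 with the replicate block. They were 0 to 9 when each library was left out. The S median stayed negative in all 14 (-1.04 to -0.24, both from leaving out a library). The G2/M median was -0.06 to 0.63 on leaving out each library, negative only without cxcr4a mutant 3. Scaling by DESeq2 size factors or library size alone changed the direction of 0 of 40 members and leaving out cxcr4a mutant 3 that of 9, the most of any alternative. Whether the replicate numbers pair the samples is not settled by the correlations of same-numbered deviations. These were 0.077, 0.074, 0.072 and -0.08 for numbers 1 to 4, and wild type 3 correlated best with mutant 4 (0.20). Under the block 4 of 40 members had an unadjusted p under 0.05, beside 1320 of 16631 genes tested. None of the members was called, and the medians were -0.49 (S) and 0.28 (G2/M). The SE fell under the block for some members (mcm2 from 0.69 to 0.26) and rose for others (cenpe from 1.18 to 1.365). The smallest adjusted p of any member under any alternative was 0.431, for pcna without wild type 1. With rows as deposited, dlgap5_1 was at -1.35 against 0.48 for summed dlgap5, and the gmnn row with no added number at 1.18 against 0.58. Low counts add counting error for members such as ccnb3 (at most 50 per library). Among members with few counts the SE was 0.60 for ccnb2, 0.76 for ccnb3, 0.91 for gmnn and 1.09 for espl1. Among well counted members it was 0.37 for ccnd1, 0.41 for mki67 and 0.52 for pcna, but 0.73 for mcm5.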
